A study of Homo sapiens with 6 samples.

Results

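The 10 genes described here encode transforming growth factor beta (TGF-beta) and activin ligands, their receptors and the SMAD proteins that carry their signal. They were taken by gene name from a table of RNA-seq read counts and all 10 were among its 17222 names. The ligands were *TGFB1*, *TGFB2* and *INHBA*, the receptors *TGFBR1*, *TGFBR2* and *TGFBR3*, and the SMADs *SMAD2*, *SMAD3*, *SMAD4* and *SMAD7*. The cells were H226, an established human line labelled as squamous lung carcinoma. They were transiently transfected with a control antisense oligonucleotide (ASO_CTRL) or with ASO_LINC#3, an antisense oligonucleotide against the long noncoding RNA *SWINGN*, and collected 48 h later. There were 3 libraries per condition, all from this 1 line and with 1 oligonucleotide per condition. No label says that the libraries came from separate cultures, so p-values measure the spread between these libraries only. The targeted transcript was not analysed here, so the degree of knockdown is not given.

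TGF-beta ligands are secreted in a latent form and, once released, bind TGFBR2, which recruits and phosphorylates TGFBR1. The active receptor phosphorylates SMAD2 and SMAD3, which join SMAD4, enter the nucleus and regulate genes together with other factors such as AP-1, while SMAD7 blocks the receptor and is itself induced by the pathway. Activin A, a dimer of the protein encoded by *INHBA*, reaches the same SMADs through activin receptors, and in carcinoma cells the pathway is known both for growth arrest and for epithelial-mesenchymal transition.

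The reads counted on genes ranged from 5738340 to 10546786 in ASO_CTRL and from 3686828 to 6780016 in ASO_LINC#3, where replicate 3 had the fewest. A chi-square of the counts of 2 libraries, divided by its degrees of freedom, was 13 and 14 for ASO_LINC#3 replicate 3 against replicates 1 and 2, 11.9, 8.25 and 6.94 for the control pairs, and 2.5 for ASO_LINC#3 replicates 1 and 2, which were thus the closest pair. Leaving out ASO_LINC#3 replicate 3 raised the number of genes called from 1106 of 14660 tested to 2616 of 15176 tested. Results that depend on this library are therefore also given without it. The squamous label could be checked on 2 of 6 marker genes: *KRT5*, a basal keratin, had a mean of 103 CPM (reads per 1000000 reads counted on genes, with library sizes scaled by edgeR's TMM method) in ASO_CTRL, and *KRT6A* had at most 0.0954 CPM there. *KRT14*, *TP63*, *SOX2* and *DSG3* were looked up but were not among the gene names of the count table, so they have no values. The 4 mesothelial markers were all measured and none was at 0; their summed level was from 634 to 834 CPM in ASO_CTRL and from 209 to 323 CPM in ASO_LINC#3. *CALB2*, which encodes calretinin, was the 1 of them that passed the thresholds given below, with a log2 fold change of -1.97. The summed level of 4 simple-epithelial keratins was from 11700 to 12640 CPM in ASO_CTRL and from 7104 to 12430 CPM in ASO_LINC#3, and the highest of the latter was that of replicate 3. The other simple-epithelial markers looked up, *EPCAM* and *CDH1*, were not among the gene names of the count table. The 2 leukocyte markers with values summed to at most 8.68 CPM. The 2 fibroblast markers with values, *COL3A1* and *THY1*, summed to 119 to 137 CPM in ASO_CTRL and 93.6 to 131.5 CPM in ASO_LINC#3. *KDR*, the 1 endothelial marker with values, had 6.96 to 7.95 CPM in ASO_CTRL and 2.17 to 3.59 CPM in ASO_LINC#3. The part of these markers in the results below was not tested.

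The promoters of *INHBA*, *SMAD7* and *TGFBR2* are shown because SMAD3 and SMAD4 bind DNA at short GTCT or CAGAC elements and often act beside AP-1. *INHBA* and *SMAD7* are the members called higher below, and *TGFBR2* was called only when ASO_LINC#3 replicate 3 was left out. The sequences are those of RefSeq on GRCh38.p14, from 250 bases before to 50 bases after an annotated transcription start, written 5′ to 3′ on the strand of the gene, and positions are counted from that start, whose base is 1. Capitals mark CAGAC in the first 2 and the AP-1 motif TGANTCA, here TGAGTCA, in the last. The first 2 windows hold no TGANTCA and the last holds no CAGAC. GTCT on its own was not searched and is not marked. The *INHBA* window lies at chr7:41703041-41703340 on the minus strand and holds CAGAC from position 28, inside the transcript. The *SMAD7* window lies at chr18:48950916-48951215 on the minus strand and holds CAGAC at -217 and -128. The *TGFBR2* window lies at chr3:30606351-30606650 on the plus strand and holds TGAGTCA from -6 to the start base. Windows not shown are those of *SMAD7* at chr18:48949284-48949583, with CAGAC at -193, and at chr18:48942758-48943057, with neither motif. The *TGFBR2* window at chr3:30606106-30606405, with neither motif, is not shown either.
INHBA: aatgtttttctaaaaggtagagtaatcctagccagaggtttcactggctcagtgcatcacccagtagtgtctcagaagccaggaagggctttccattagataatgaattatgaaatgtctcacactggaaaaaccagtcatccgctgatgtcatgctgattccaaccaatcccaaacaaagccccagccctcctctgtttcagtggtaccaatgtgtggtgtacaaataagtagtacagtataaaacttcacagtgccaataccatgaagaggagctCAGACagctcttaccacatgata
SMAD7: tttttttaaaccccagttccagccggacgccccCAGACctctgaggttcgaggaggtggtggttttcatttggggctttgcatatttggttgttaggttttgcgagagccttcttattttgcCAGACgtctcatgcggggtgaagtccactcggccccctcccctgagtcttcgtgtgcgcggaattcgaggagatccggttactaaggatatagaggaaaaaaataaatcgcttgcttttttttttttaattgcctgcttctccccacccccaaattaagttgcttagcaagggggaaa
TGFBR2: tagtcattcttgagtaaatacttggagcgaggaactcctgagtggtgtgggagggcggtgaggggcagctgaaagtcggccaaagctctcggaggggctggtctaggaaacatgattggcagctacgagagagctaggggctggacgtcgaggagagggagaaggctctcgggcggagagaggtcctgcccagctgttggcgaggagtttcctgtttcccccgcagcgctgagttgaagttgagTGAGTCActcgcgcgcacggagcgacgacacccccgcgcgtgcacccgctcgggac

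RefSeq listed 25 such windows for the 10 genes, and all 3 motifs were searched on both strands. CAGAC was found in 11 windows of 5 genes, and in 45.3% of all 35116 promoters searched. TGANTCA was in 2 windows, 1 of *TGFBR2* and 1 of *SMAD3*, against 7.71% of all promoters. The palindrome GTCTAGAC, a high-affinity site of SMAD proteins that does not itself contain CAGAC, was in 0 of the 25 windows and in 0.202% of all promoters. The starts of the *SMAD7* and *TGFBR2* windows coincide with the starts of these genes as annotated on GRCh37, the build of the counts and of the gene positions below, whereas the start of the *INHBA* window is 2744 bases inside the annotated gene. A motif match is a description of the letters and not of binding, which was not measured in these libraries.

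In ASO_CTRL, *SMAD3* was the most abundant of the 10 transcripts and *TGFB2* the least. Levels were compared between genes as CPM per kilobase of transcript. On this scale *SMAD3* had 67.9, *INHBA* 21.2, *TGFBR2* 10.5, *SMAD7* 6.19 and *TGFB1* 3.29. Below them came *SMAD4* with 2.78, *TGFBR1* with 1.77, *TGFBR3* with 1.34, *SMAD2* with 0.595 and *TGFB2* with 0.172. Neighbours in this order did not overlap between the 3 control libraries. The annotated transcript of *SMAD2* is 34626 bases long, and the first strand was primed from the poly(A) tail, so the choice of length matters. Per kilobase of coding sequence *SMAD2* had 14.7, level with *SMAD4* at 14.7, and the pairs *SMAD7* and *SMAD4*, *SMAD4* and *SMAD2*, and *TGFB1* and *TGFBR1* overlapped. *SMAD3*, *INHBA* and *TGFBR2* were the first 3 on both scales in both conditions.

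Of the 10 genes, 9 passed edgeR's filter on low counts and 2 of these, *INHBA* and *SMAD7*, were called higher in ASO_LINC#3. The thresholds for a call in edgeR's quasi-likelihood F-test were those of the study, an adjusted p below 0.01 together with an absolute log2 fold change above 0.5. Over all 14660 genes tested, 7.54% were called, 4.91% higher and 2.63% lower. No member was called lower by edgeR, and at an unadjusted p below 0.05, which 32.4% of all genes tested passed (17.1% higher and 15.3% lower), there were 5 members higher and 0 lower. DESeq2 and limma-voom each called 2 higher and 0 lower. The fitted change was positive for 7 members and negative for 2, with a median log2 fold change of 0.53, whereas the median over all genes tested was -0.0027. For 5 members every ASO_LINC#3 library was above every ASO_CTRL library and for 1 every one was below, that is 6 of 9, whereas such separation was seen for 36.1% of all genes tested (18.7% higher and 17.3% lower). In libraries of whole cultures, fewer cells of a type and less RNA per cell cannot be told apart.

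**Figure D1:**
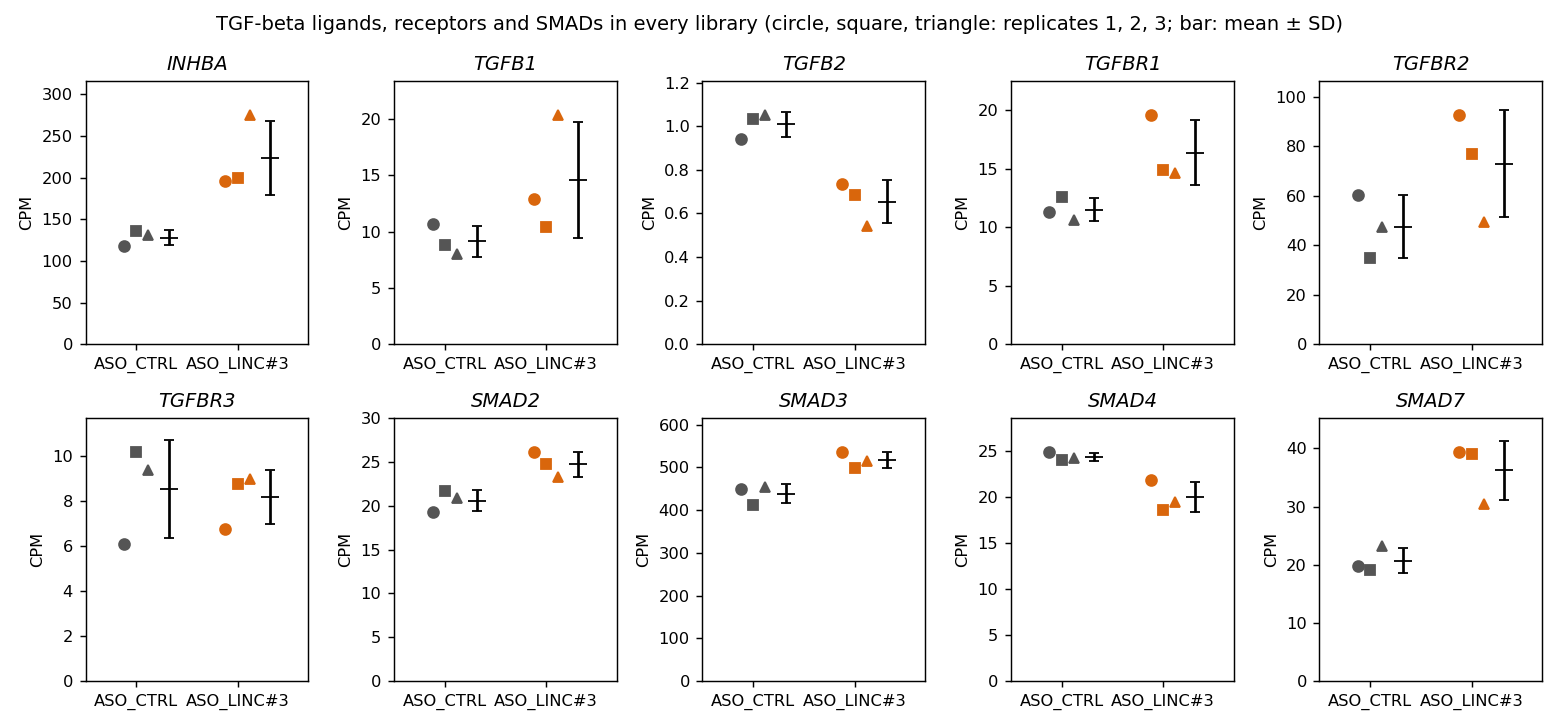
CPM of each of the 10 genes (vertical axis, from 0, with its own range per gene) in every library, with the mean and SD of the 3 libraries of each condition beside the points. *INHBA* and *SMAD7* were higher in all 3 ASO_LINC#3 libraries, at 196 CPM or more against at most 136 CPM and at 30.4 CPM or more against at most 23.2 CPM, while *TGFBR3* overlapped.

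*INHBA* (chr7:41706766-41745432, minus strand, GRCh37), the gene of the activin A subunit, had 118, 136 and 131 CPM in ASO_CTRL replicates 1, 2 and 3. In ASO_LINC#3 it had 196, 200 and 275 CPM, above every control library and highest in replicate 3. The means were 128 ± 9.30 and 224 ± 44.4 CPM (SD, n = 3 each). The log2 fold change was 0.80 (SE 0.15, edgeR adjusted p = 0.00594). The call rested on between 789 and 1369 reads per library. It was lost, with a log2 fold change of 0.75 to 0.89, when any 1 of the 5 libraries other than ASO_LINC#3 replicate 3 was left out, the edgeR adjusted p then being from 0.0103 to 0.0339. Without ASO_LINC#3 replicate 3 it was kept, at a log2 fold change of 0.63 (edgeR adjusted p = 0.00107). It was also lost with offsets for GC content and transcript length (0.73, edgeR adjusted p = 0.0198) and when edgeR's glmTreat required a change beyond 0.5 (adjusted p = 0.13).

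*TGFB1* (chr19:41807492-41859827, minus strand), the most widely expressed TGF-beta ligand, was low, with 10.6, 8.78 and 8.01 CPM in ASO_CTRL. It had 12.9, 10.4 and 20.3 CPM in ASO_LINC#3. Replicate 3 stood well above the other libraries, and replicate 2 lay just below the highest control, so the conditions overlapped. The means were 9.14 ± 1.35 and 14.6 ± 5.15 CPM (SD, n = 3 each), with a log2 fold change of 0.64 (SE 0.25, edgeR adjusted p = 0.105). Without ASO_LINC#3 replicate 3 the fold change was 0.37 on the log2 scale. These values stand on 51 to 88 reads per library, and 215 exonic bases of *TGFB1* are shared with *HNRNPUL1* on the other strand. The strand setting of the counting is not given in the sources used here, so reads of the shared bases cannot be assigned. The annotation also gives overlaps with noncoding genes for *INHBA* (248 bases), *SMAD3* (182) and *SMAD4* (967).

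*TGFB2* (chr1:218518678-218617961, plus strand), a ligand that needs a co-receptor for strong binding, was near the limit of detection. It had 7, 6 and 11 reads in ASO_CTRL and 5, 4 and 2 reads in ASO_LINC#3, which is 0.943, 1.03 and 1.05 CPM against 0.735, 0.685 and 0.542 CPM. The 3 knockdown libraries were all below the controls, but the gene did not pass the filter. In the fit without a filter the log2 fold change was -0.57 and the edgeR adjusted p 0.471. The annotation also places *TGFB2-AS1* and *TGFB2-OT1* over 2072 of its exonic bases.

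Among the receptors, none was called by edgeR, DESeq2 or limma-voom, and 2 of 3 were higher at an unadjusted p below 0.05, beside the 17.1% of all genes. *TGFBR1* (chr9:101866320-101916474, plus strand), the kinase that phosphorylates SMAD2 and SMAD3, had 11.3, 12.6 and 10.6 CPM in ASO_CTRL and 19.5, 14.9 and 14.6 CPM in ASO_LINC#3. The conditions did not overlap, with replicate 1 the highest. The means were 11.5 ± 0.998 and 16.4 ± 2.76 CPM (SD, n = 3 each), and the log2 fold change was 0.53 (SE 0.19, edgeR adjusted p = 0.0739).

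*TGFBR2* (chr3:30648093-30735634, plus strand), the receptor that binds the ligand first, varied among replicates of both conditions. It had 60.5, 34.8 and 47.5 CPM in ASO_CTRL and 92.6, 77.0 and 49.6 CPM in ASO_LINC#3. Replicates 1 and 2 of the knockdown were above every control, whereas replicate 3 lay within the range of the controls. The means were 47.6 ± 12.9 and 73.1 ± 21.8 CPM (SD, n = 3 each), and the log2 fold change was 0.62 (SE 0.24, edgeR adjusted p = 0.0990). Without ASO_LINC#3 replicate 3 the gene was called, at 0.83 (edgeR adjusted p = 0.00563), while without any other single library the adjusted p was from 0.0712 to 0.346.

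*TGFBR3* (chr1:92145900-92371892, minus strand) encodes betaglycan, a co-receptor that presents TGF-beta2 and binds inhibin. It had 6.06, 10.2 and 9.35 CPM in ASO_CTRL and 6.76, 8.73 and 8.95 CPM in ASO_LINC#3. The conditions overlapped fully, and replicate 1 was the lowest of each. The log2 fold change was -0.08 (SE 0.24, edgeR adjusted p = 0.862), and its sign turned when ASO_CTRL replicate 2 or 3 or ASO_LINC#3 replicate 1 was left out.

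**Figure D2:**
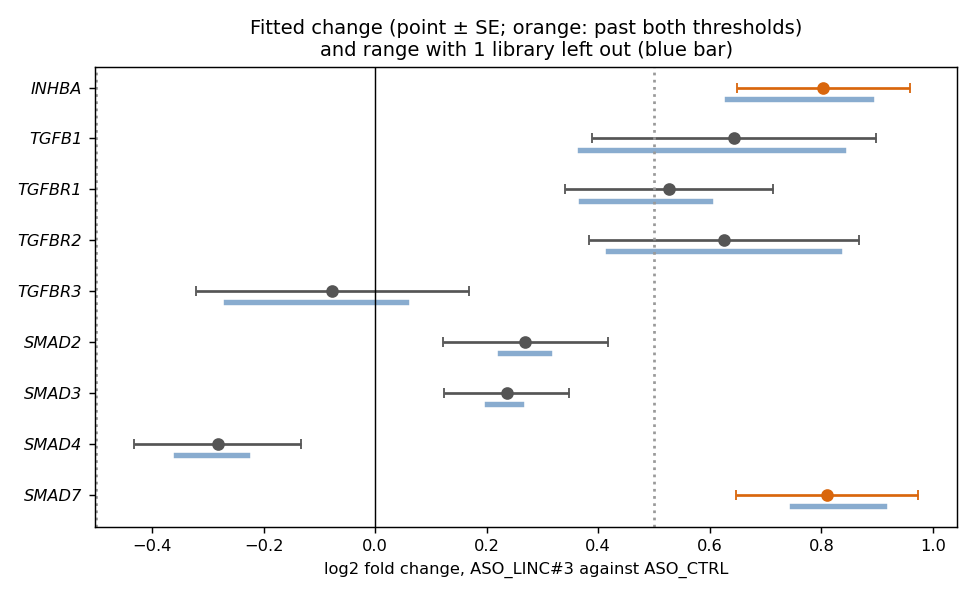
Log2 fold change of ASO_LINC#3 against ASO_CTRL (horizontal axis) for the 9 genes tested, with the SE as whiskers, the range when 1 library was left out as a blue bar and dotted lines at a change of 0.5 in either direction. *INHBA* at 0.80 and *SMAD7* at 0.81 are the 2 called, and the bar of *TGFBR3* alone spans 0, from -0.27 to 0.05.

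Among the SMADs, *SMAD7* was called higher, and the other three differed by less than 0.3 on the log2 scale. *SMAD7* (chr18:46446223-46477335, minus strand), the inhibitory SMAD that recruits ubiquitin ligases to the receptor, had 19.8, 19.1 and 23.2 CPM in ASO_CTRL. It had 39.4, 39.0 and 30.4 CPM in ASO_LINC#3, above every control and lowest in replicate 3. The means were 20.7 ± 2.18 and 36.3 ± 5.11 CPM (SD, n = 3 each).

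The log2 fold change of *SMAD7* was 0.81 (SE 0.16, edgeR adjusted p = 0.00728), from 111 to 268 reads per library. Like that of *INHBA*, the call was lost without any 1 of the 5 libraries other than ASO_LINC#3 replicate 3, at log2 fold changes of 0.75 to 0.90 and edgeR adjusted p from 0.0253 to 0.0419. Without ASO_LINC#3 replicate 3 it was kept (0.91, edgeR adjusted p = 0.000455). It also held with offsets for GC content and length (0.77, edgeR adjusted p = 0.00981) and not under glmTreat (adjusted p = 0.138).

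*SMAD2* and *SMAD3* are the receptor-regulated SMADs of TGF-beta and activin. *SMAD2* (chr18:45335328-45457517, minus strand) had 19.3, 21.7 and 20.9 CPM in ASO_CTRL and 26.2, 24.8 and 23.3 CPM in ASO_LINC#3. *SMAD3* (chr15:67356101-67487511, plus strand) had 450, 413 and 454 CPM in ASO_CTRL and 536, 499 and 516 CPM in ASO_LINC#3. For both genes every knockdown library was above every control, by a small margin. The log2 fold changes were 0.27 (SE 0.15, edgeR adjusted p = 0.241) and 0.24 (SE 0.11, edgeR adjusted p = 0.177), so neither was called. The fold change of *SMAD3* is the most precise of the 9, with 1902 reads or more in each library.

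*SMAD4* (chr18:48554898-48611415, plus strand), the partner that all receptor-regulated SMADs share, was the 1 member tested whose knockdown libraries all lay below the controls. It had 24.9, 24.1 and 24.2 CPM in ASO_CTRL and 21.9, 18.7 and 19.5 CPM in ASO_LINC#3, or means of 24.4 ± 0.442 and 20.02 ± 1.68 CPM (SD, n = 3 each). The log2 fold change was -0.28 (SE 0.15, edgeR adjusted p = 0.223).

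The members differed in how the 3 knockdown libraries compared with each other. The change of a knockdown library is its log2 CPM (2 added as prior count) less the average of the controls. It was largest in replicate 3 for *INHBA* (0.62, 0.64 and 1.10 in replicates 1, 2 and 3) and for *TGFB1* (0.50, 0.20 and 1.14). It was smallest in replicate 3 for *TGFBR2* (0.99, 0.73 and 0.10), *TGFBR1* (0.76, 0.37 and 0.35), *SMAD7* (0.92, 0.91 and 0.55) and *SMAD2* (0.34, 0.27 and 0.18). For *TGFBR3* it was also largest in replicate 3 (-0.29, 0.07 and 0.10), and for *SMAD3* (0.29, 0.19 and 0.23) and *SMAD4* (-0.16, -0.38 and -0.32) replicate 3 lay between the others. A library effect and a difference between replicate cultures cannot be told apart here.

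**Figure D3:**
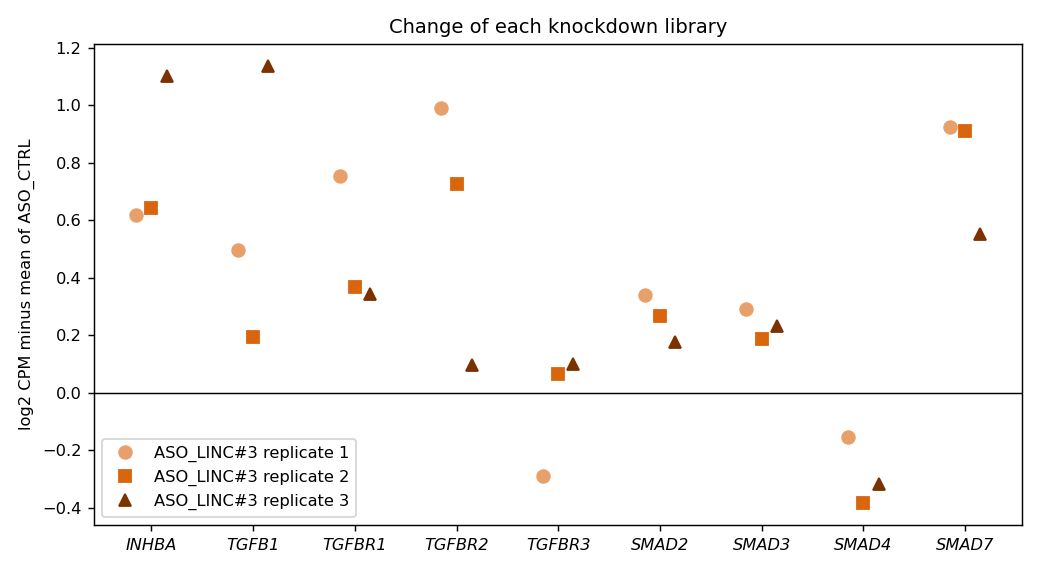
Change of each ASO_LINC#3 library (vertical axis, log2 CPM minus the mean of the 3 ASO_CTRL libraries) for the 9 genes tested, 1 symbol per replicate. The triangles of replicate 3 lie at the top for *INHBA* (1.10) and *TGFB1* (1.14) and near 0 for *TGFBR2* (0.10).

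Ratios of members within a library need no scaling between libraries, and 5 were compared with an exact two-sided permutation test. With 3 libraries against 3 its smallest p is 0.1, so none could pass 0.05. The log2 ratio of *SMAD7* to *SMAD3* reads, inhibitor to effector, was -4.50, -4.43 and -4.29 in ASO_CTRL and -3.76, -3.67 and -4.08 in ASO_LINC#3. Every knockdown library was above every control, with a mean difference of 0.57 (exact permutation p = 0.1, adjusted over the 5 ratios 0.25). The log2 ratio of *TGFB2* to *TGFB1* was -3.41, -2.99 and -2.88 in ASO_CTRL and -4.01, -3.77 and -4.92 in ASO_LINC#3. These values did not overlap either, with a mean difference of -1.14 (exact permutation p = 0.1, adjusted 0.25), but *TGFB2* contributed 2 to 11 reads per library. Without ASO_LINC#3 replicate 3 the mean difference was -0.80 for *TGFB2* to *TGFB1* and 0.69 for *SMAD7* to *SMAD3*.

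The other 3 ratios overlapped between the conditions. The log2 ratio of *TGFBR2* to *TGFBR1* differed by 0.11 (exact permutation p = 0.7), that of *TGFBR3* to *TGFBR2* by -0.64 (exact permutation p = 0.4) and that of *SMAD2* to *SMAD3* by 0.03 (exact permutation p = 0.8). Adjusted over the 5 ratios these p-values were 0.8, 0.667 and 0.8. With 1 library left out, the difference for *TGFBR3* to *TGFBR2* ranged from -1.06 (without ASO_CTRL replicate 1) to -0.29 (without ASO_CTRL replicate 2), and was -0.32 without ASO_LINC#3 replicate 1 and -0.97 without ASO_LINC#3 replicate 3.

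**Figure D4:**
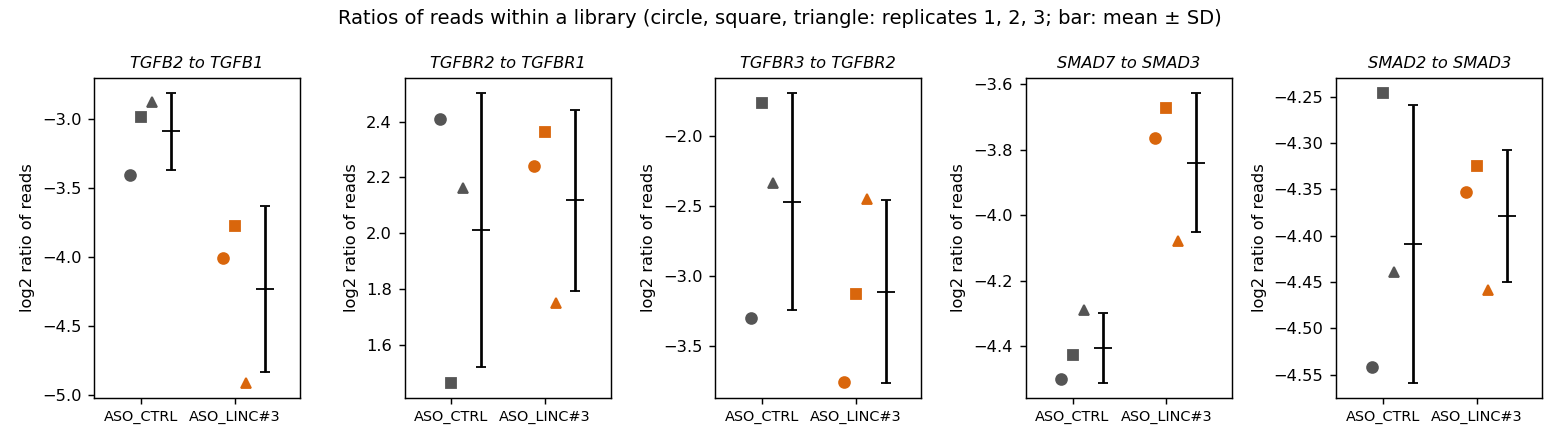
Log2 ratio of reads of 2 members within each library (vertical axes, not starting at 0 and with their own range) with the mean and SD per condition. The libraries of the conditions are apart for *TGFB2* to *TGFB1* and *SMAD7* to *SMAD3*, with differences of -1.14 and 0.57, and overlap for the other 3 ratios.

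Around the 10 members, 110 further genes of the pathway were listed by role, 92 were in the table and 79 were tested. Of these, 14 were called higher and 9 lower, which is 29.1% beside 7.54% of all genes tested, and the median log2 fold change was 0.0986. Without ASO_LINC#3 replicate 3, 20 were called higher and 14 lower, beside 1430 higher and 1186 lower of all 15176 genes tested in that fit. Without any other single library 11 to 16 were called in all. Calls below that come from the fit without ASO_LINC#3 replicate 3 stand beside the same totals. The lists were chosen with earlier results of these data known, so the shares called describe the lists and are no test. *CCN2* is in the table under its older name *CTGF*. Genes named below are those called, up to 5 with the smallest p per direction in a list, and 2 genes with the highest CPM among those not called.

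Of 18 further ligands, 10 were in the table and 5 were tested, of which 2 were called higher and 2 lower. That is 80% of those tested, beside 7.54% of all genes. *GDF15*, a stress-induced member of the family that signals through a receptor of its own, rose from 190, 200 and 186 CPM to 555, 595 and 736 CPM (log2 fold change 1.71, edgeR adjusted p = 3.5e-05). *INHBB*, another activin subunit, rose from a mean of 4.74 to 11.1 CPM (1.25, edgeR adjusted p = 0.00383). *BMP4*, a bone morphogenetic protein that signals through SMAD1 and SMAD5, fell from 60.7, 76.9 and 56.8 CPM to 14.3, 13.9 and 19.2 CPM (-2.05, edgeR adjusted p = 7.1e-05). *GDF5*, of the same branch, fell from 78.6 to 34.0 CPM (-1.23, edgeR adjusted p = 0.00206), and *GDF11* was not called (-0.69, edgeR adjusted p = 0.0646). Both activin subunit genes that were tested, *INHBA* and *INHBB*, were thus called higher, and both ligands of the BMP branch that were tested were called lower. With 1 library left out, *INHBA* was called in 1 of 6 fits, that without ASO_LINC#3 replicate 3. *GDF15* and *BMP4* were called without each of the 6 libraries in turn, *GDF5* in 3 of these 6 fits and *INHBB* in 1, that without ASO_LINC#3 replicate 3, in which *GDF11* was called lower too (-0.93, edgeR adjusted p = 0.00339).

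Of 13 further receptors and co-receptors, 8 were tested and 2 were called higher, which is 25% beside 7.54% of all genes called in either direction. None was called lower by edgeR, DESeq2 or limma-voom. At an unadjusted p below 0.05 there were 5 higher and 0 lower, beside 17.1% and 15.3% of all genes. *RGMB*, a BMP co-receptor, rose from 5.36 to 14.5 CPM (log2 fold change 1.42, edgeR adjusted p = 0.00212). *ENG*, which encodes endoglin, a co-receptor related to betaglycan, rose from 10.4 to 24.2 CPM (1.19, edgeR adjusted p = 0.00914). *ACVR1B*, the activin counterpart of *TGFBR1*, had 38.0 and 53.7 CPM (0.51, edgeR adjusted p = 0.0719), and *BMPR2* 18.6 and 20.9 CPM (0.18, edgeR adjusted p = 0.493), so neither was called. Leaving out 1 library kept the call of *RGMB* in 3 of 6 fits and that of *ENG* in 2. In the fit without ASO_LINC#3 replicate 3, 4 of the 8 were called higher, *ACVR1B* among them (0.63, edgeR adjusted p = 0.00674). In that fit 1430 of all 15176 genes tested were called higher.

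None of the 4 other SMADs was called by edgeR, DESeq2 or limma-voom. At an unadjusted p below 0.05 there were 2 higher and 2 lower, beside 17.1% and 15.3% of all genes. *SMAD5* (0.47, edgeR adjusted p = 0.125) and *SMAD1* (-0.57, edgeR adjusted p = 0.114), both effectors of BMP signals, had fitted changes of opposite sign. *SMAD5* was called higher without ASO_LINC#3 replicate 3 (0.66, edgeR adjusted p = 0.00171). The other 2, named to complete the list, were *SMAD9* (1.38, edgeR adjusted p = 0.0362) and *SMAD6* (-0.90, edgeR adjusted p = 0.0619). *SMAD9* had means of 1.06 and 2.80 CPM and *SMAD6* of 8.47 and 4.61 CPM in ASO_CTRL and ASO_LINC#3.

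Of 12 tested genes for ligand latency, processing and trapping, 2 were called lower, which is 16.7% beside 7.54% of all genes called in either direction. None was called higher by edgeR, DESeq2 or limma-voom. At an unadjusted p below 0.05 there were 1 higher and 4 lower, beside 17.1% and 15.3% of all genes. *PCSK6*, a proprotein convertase that processes ligands of the family, fell from 10.2 to 4.21 CPM (log2 fold change -1.28, edgeR adjusted p = 0.00619). *FSTL1*, a secreted follistatin-like glycoprotein, fell from 620 to 395 CPM (-0.65, edgeR adjusted p = 0.00947). *FSTL3*, an activin trap, had 184 and 137 CPM (-0.43, edgeR adjusted p = 0.129) and *LTBP3*, which holds latent TGF-beta in the matrix, 75.04 and 87.6 CPM (0.22, edgeR adjusted p = 0.488), and neither was called. *PCSK6* was called in 2 of the 6 fits with 1 library left out, and *FSTL1* only without ASO_LINC#3 replicate 3. In that fit *FSTL3* was called lower as well (-0.69, edgeR adjusted p = 0.00062).

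Of 23 tested regulators of receptors and SMADs inside the cell, 2 were called higher and 1 lower, which is 13% beside 7.54% of all genes. *SMURF2*, a ubiquitin ligase that SMAD7 brings to the receptor, rose from 102, 92.1 and 84.9 CPM to 216, 220 and 152 CPM (log2 fold change 1.08, edgeR adjusted p = 0.00157). *NEDD4L*, a related ligase that targets activated SMAD2 and SMAD3, rose from 52.8 to 84.2 CPM (0.67, edgeR adjusted p = 0.00458). *BAMBI*, a pseudoreceptor without kinase domain that damps the pathway, fell from 55.1 to 31.98 CPM (-0.79, edgeR adjusted p = 0.00325). *STRAP* (0.14, edgeR adjusted p = 0.640) and *FKBP1A* (-0.05, edgeR adjusted p = 0.866), which bind the receptors, were not called. In the fits with 1 library left out, *SMURF2* was called in 3, *BAMBI* in 2 and *NEDD4L* in 1, that without ASO_LINC#3 replicate 3.

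The list of known SMAD target genes held the most calls and the most genes tested. Of 27 tested, 8 were called higher and 4 lower, so called genes lay on both sides of 0. That is 44.4%, beside 7.54% of all genes and 80% of the other ligands tested. The median log2 fold change was 0.20. The list was chosen with earlier results of these data known, so its share describes the list and is no test. *SNAI1*, a repressor of epithelial genes, rose from 8.08, 8.60 and 8.20 CPM to 33.9, 31.8 and 33.6 CPM (log2 fold change 1.997, edgeR adjusted p = 2.9e-05). The AP-1 gene *JUNB* (1.59, edgeR adjusted p = 5.4e-05) and the genes of the repressors *BHLHE40* (1.21, edgeR adjusted p = 1e-04) and *KLF10* (1.30, edgeR adjusted p = 0.000157) were also called higher. *IL11*, a cytokine of the interleukin-6 family, rose from 19.5, 22.4 and 23.0 CPM to 57.9, 69.1 and 51.5 CPM (1.46, edgeR adjusted p = 0.000205). All of these 5 were called without each of the 6 libraries in turn. The other 3 called higher, named to complete the count, were *TSC22D1* (1.47), *SNAI2* (1.38) and *ADAM19* (1.35). *TSC22D1* and *ADAM19* were called in all 6 fits with 1 library left out and *SNAI2* in 3.

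The called genes that fell encode matrix, contractile and differentiation proteins. Other matrix and contractile genes of the list, namely *FN1*, *TGFBI*, *TAGLN*, *ACTA2* and *CNN1*, were not called in the fit of all 6 libraries. *COL1A1*, a chain of collagen I, fell from 344, 251 and 367 CPM to 123, 135 and 117 CPM (log2 fold change -1.36, edgeR adjusted p = 0.00033), and *COL3A1*, of collagen III, fell from 10.8 to 3.49 CPM (-1.58, edgeR adjusted p = 0.00261). *ID2*, an inhibitor of differentiation that BMP induces and TGF-beta can repress, fell from 161 to 64.8 CPM (-1.31, edgeR adjusted p = 0.000561). *TPM1*, a tropomyosin, fell from 1746 to 1195 CPM (-0.55, edgeR adjusted p = 0.00913). *CDKN1A*, the cell cycle inhibitor p21, had 655 and 619 CPM (-0.08, edgeR adjusted p = 0.675) and *ID1* 655 and 504 CPM (-0.38, edgeR adjusted p = 0.0445), and neither was called. *COL1A1* and *ID2* were called in all 6 fits with 1 library left out, *COL3A1* in 3 and *TPM1* only without ASO_LINC#3 replicate 3.

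**Figure D5:**
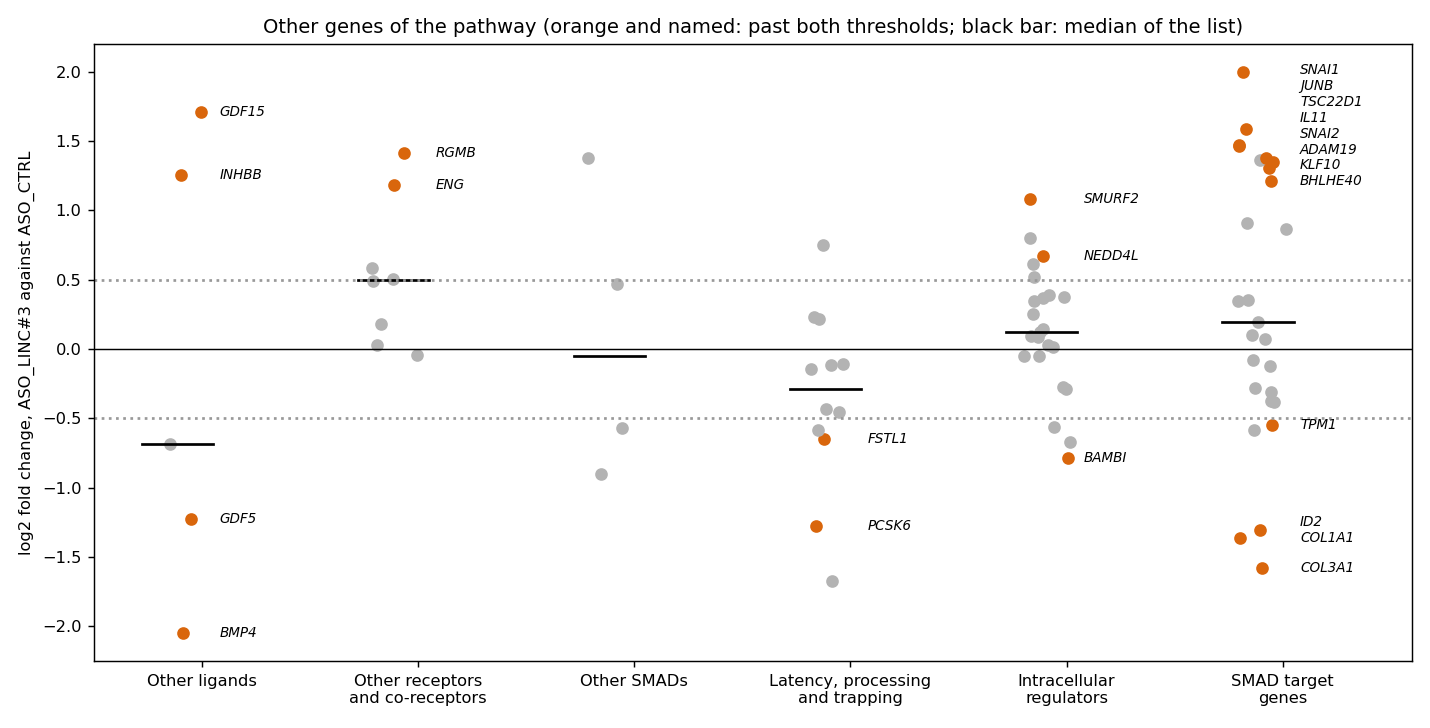
Log2 fold change of ASO_LINC#3 against ASO_CTRL (vertical axis) for the 79 further pathway genes tested, 1 point per gene in 6 lists, with the median of each list as a black bar and dotted lines at 0.5 in either direction; orange points are called and named in the order of their height. The SMAD target genes have 8 orange points above 0 and 4 below it, and the other SMADs have none.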

How the data were processed

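Total RNA of 6 libraries was sequenced after first-strand synthesis from oligo-dT. The authors aligned reads to hg19 with STAR, and the deposited values are raw read counts per gene name, with no normalization. The counting tool, annotation and strand setting are not given in the sources used here. From 24.8% to 28.1% of a library's reads were on no gene and were left out. Libraries were grouped by their titles. The methods paragraph names BJ cells, whereas the labels name H226.

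Counts were tested in edgeR 4.0.16 under R 4.3.3 (filterByExpr, TMM, quasi-likelihood F-test, no block), with Benjamini-Hochberg adjustment over 14660 genes. The common biological coefficient of variation was 0.159. No pair of replicates was as close as sampling noise alone would leave it (chi-square per degree of freedom 2.5 or more). The script was tested on simulated counts. Alternatives were DESeq2 1.42.0, limma-voom (limma 3.58.1), other scalings and filters, an adjusted p of 0.05, glmTreat, offsets from splines of GC content and length (5 degrees of freedom, values for 85.5% of tested genes), the replicate number as a block and leaving out each library. Within-library ratios used counts with 0.5 added.

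Named genes were all members, the called genes of each further list, at most 5 per direction, and 2 uncalled genes with the highest CPM. Pathway genes given values beyond this rule are marked as named to complete a count or list. The members and lists were chosen with earlier results of these data known, and 1 gene of the target list is not reported here or counted in that list. Positions and lengths came from GENCODE v44 lifted to GRCh37, which matched 13370 names directly and 957 by an older symbol. Promoters came from RefSeq (GRCh38.p14).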

Additional observations from a re-analysis of the deposited data

How the results depend on the processing

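All members tested kept their direction under every alternative, except *TGFBR3*. Its log2 fold change ranged from -0.267 to 0.0548 with 1 library left out, and was above 0 without ASO_CTRL replicate 2 (0.0548) or 3 (0.0061) or ASO_LINC#3 replicate 1 (0.054). The total of genes called, 1106, became 384 with glmTreat, 656 with a replicate block, 1737 with offsets for GC content and length, and 2465 at an adjusted p of 0.05. Leaving out 1 library gave from 359 (without ASO_CTRL replicate 3) to 2616 (without ASO_LINC#3 replicate 3). The number of members called, 2, became 0 with glmTreat, 1 with the GC and length offsets, 0 with the replicate block and 0 with the block and offsets together. Leaving out 1 library gave from 0 to 3. The number of pathway genes called, 23, became 11 with glmTreat and from 11 to 34 with 1 library left out. Without a library fewer samples enter the fit; why the count rose without ASO_LINC#3 replicate 3 was not tested.

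The titles number the replicates but do not say whether same-numbered libraries were prepared together. Deviations of same-numbered libraries from the means of their conditions correlated at 0.059, -0.149 and -0.18. With so few libraries these values cannot decide whether the samples were paired. With the replicate block the edgeR adjusted p was 0.0121 for *INHBA* and 0.0256 for *SMAD7*. With 1 library left out, the difference in the *TGFBR2* to *TGFBR1* ratio ranged from -0.168 to 0.307, below 0 without ASO_CTRL replicate 2 (-0.168) or ASO_LINC#3 replicate 2 (-0.0158), and that in the *SMAD2* to *SMAD3* ratio from -0.037 (without ASO_CTRL replicate 1) to 0.111. Depth limits *TGFB2* most, where 3 reads are from 0.286 to 0.813 CPM.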
